A study of Mus musculus with 10 samples.

Results

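Apoe and Apod, the genes of the secreted lipid carriers apolipoprotein E and apolipoprotein D, were followed in the ageing mouse hypothalamus. They are 2 of the 19505 genes that the array measured and the annotation names, and each is represented by 1 probe set, so no probe set had to be preferred to another. Both genes were chosen by their deposited signal, which was higher in Old than in Young samples, and the values below describe that difference rather than test it afresh. The tissue came from male mice of the inbred strain C57BL/6J. Old samples were 138 weeks of age (5 arrays, Old 1 to Old 5) and Young samples 24 weeks (5 arrays, Young 1 to Young 5). No treatment or allele sets the groups apart in the labels. Messenger RNA was measured on 1-colour arrays of the design Clariom S Mouse, and the deposited values were taken to be log2 signal. Whether the 5 samples of an age came from 5 animals is not stated in the labels, and a p-value here measures only how far these samples scatter, part of which may be technical.

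Apolipoprotein E is the main lipid-carrying protein made inside the brain. Astrocytes release most of it, microglia and other cells can raise it, and it carries cholesterol and phospholipid between cells, which take it up through lipoprotein receptors on their surface. Apolipoprotein D is not related to it in structure: it is a lipocalin, a small barrel-shaped protein that binds single lipids such as arachidonic acid, and in the brain it comes from oligodendrocytes, astrocytes and cells around blood vessels. It is known as a protein of the ageing and injured nervous system that limits lipid peroxidation. In a sample of whole tissue such as this one, more RNA per cell and more cells of a type cannot be told apart.

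The windows around the start sites (promoters) of both genes are shown because the 2 genes were higher in the same samples. They hold 250 bases before and 50 bases from the start, printed 5′ to 3′ from the RefSeq table of build GRCm38.p6, and capitals mark the 50 bases from the start on. The Apoe window lies at chr7:19699139-19699438 and the Apod window at chr16:31314759-31315058, both on the minus strand. The table lists 3 starts for Apoe, of which the one farthest upstream is shown, and 1 for Apod.
Apoe: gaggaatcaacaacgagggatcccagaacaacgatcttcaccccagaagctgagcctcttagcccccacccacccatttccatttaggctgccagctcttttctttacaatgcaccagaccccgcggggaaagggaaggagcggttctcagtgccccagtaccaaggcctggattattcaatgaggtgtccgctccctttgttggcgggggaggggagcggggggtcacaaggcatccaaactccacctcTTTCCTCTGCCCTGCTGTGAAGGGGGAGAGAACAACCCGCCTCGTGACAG
Apod: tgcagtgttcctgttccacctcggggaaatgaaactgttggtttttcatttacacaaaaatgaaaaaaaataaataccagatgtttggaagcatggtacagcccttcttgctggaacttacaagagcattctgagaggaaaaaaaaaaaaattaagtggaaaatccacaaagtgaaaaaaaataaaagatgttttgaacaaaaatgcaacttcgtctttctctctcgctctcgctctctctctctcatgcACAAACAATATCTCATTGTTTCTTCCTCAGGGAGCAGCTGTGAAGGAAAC
The 2 windows differ in composition. The Apoe window is 57.7% G or C with 10 CpG sites, and the Apod window is 37.3% G or C with 4 CpG sites, where the median over 32851 such windows is 52.7% and 7 sites. Each window was searched on both strands for TGANTCA (AP-1), TTCNNNGAA (STAT), the core of the interferon-stimulated response element (a pair of GAAA blocks with 2 bases between them), TGACGTCA (CRE), the direct repeat bound by the sterol-sensing LXR receptors (a pair of AGGTCA blocks with 4 bases between them), GGGCGG (GC box), TATAAA (a core promoter element) and CCAAT (bound by the factor NF-Y). None of the 8 motifs occurred in either window shown, which says only that these letters are not there. Of the other 2 Apoe windows, that of start 2 held TATAAA on each strand, in 2 matches that overlap, which begin at -100 and -96 from the start. Over all windows the shares with a match were 7.81%, 8.3%, 3.44%, 1.79%, 0.0152%, 35.7%, 13.6% and 37.4%, in the order given.

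Most of the deposited table cannot show a change with age. In 19118 of the 19505 genes the standard deviation (SD) over the 10 arrays was 1e-05 log2 within 1%, and these genes are called collapsed here; 276 genes (1.42%), called varying, reached an SD of 0.01 log2 or more. Apoe and Apod were both varying genes, with an SD over the 10 arrays of 0.0554 and 0.31 log2. Whether the values of varying genes were also drawn together cannot be seen in the table, and each fold below is one of deposited values. Of the 12 measured peptide genes of the hypothalamus, some were bright, such as Pmch at 10.39 log2 in Old and 10.32 log2 in Young, while Pomc and Gnrh1, at 6.32 and 6.23 log2, lay below the array medians of 6.778 to 6.783 log2. In Young 5 the choroid plexus gene Ttr stood at 12.44 log2 and in Young 3 the liver genes Alb and Mup2 at 6.87 and 7.35 log2. The differences of Apoe and Apod, and those of other genes that these 2 arrays move, are therefore also given without them.

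Apod was clearly higher in the old hypothalamus. Its log2 signal was 11.346, 11.441, 11.341, 11.322 and 11.074 in Old 1 to Old 5, and 10.760, 10.738, 10.860, 10.649 and 10.610 in Young 1 to Young 5. The groups did not overlap: the lowest Old array, Old 5, lay 0.21 log2 above the highest Young array, Young 3. The arrays Old 1 to Old 4 stood within a narrow band, and Old 5 stood below them. The means were 11.30 ± 0.14 in Old and 10.72 ± 0.098 log2 in Young (SD, n = 5 each), a difference of 0.58 log2 (SE 0.071) or 1.5-fold.

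Apoe was higher in the old hypothalamus by a much smaller amount. Its log2 signal was 11.799, 11.877, 11.809, 11.763 and 11.796 in Old 1 to Old 5, and 11.707, 11.705, 11.687, 11.736 and 11.750 in Young 1 to Young 5. All 5 Old arrays again lay above all 5 Young arrays, but Old 4 and Young 5 were only 0.012 log2 apart. Old 2 was the highest array for Apoe, as it was for Apod. The means were 11.81 ± 0.042 in Old and 11.72 ± 0.025 log2 in Young (SD, n = 5 each), a difference of 0.092 log2 (SE 0.021) or 1.07-fold.

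**Figure D1:**
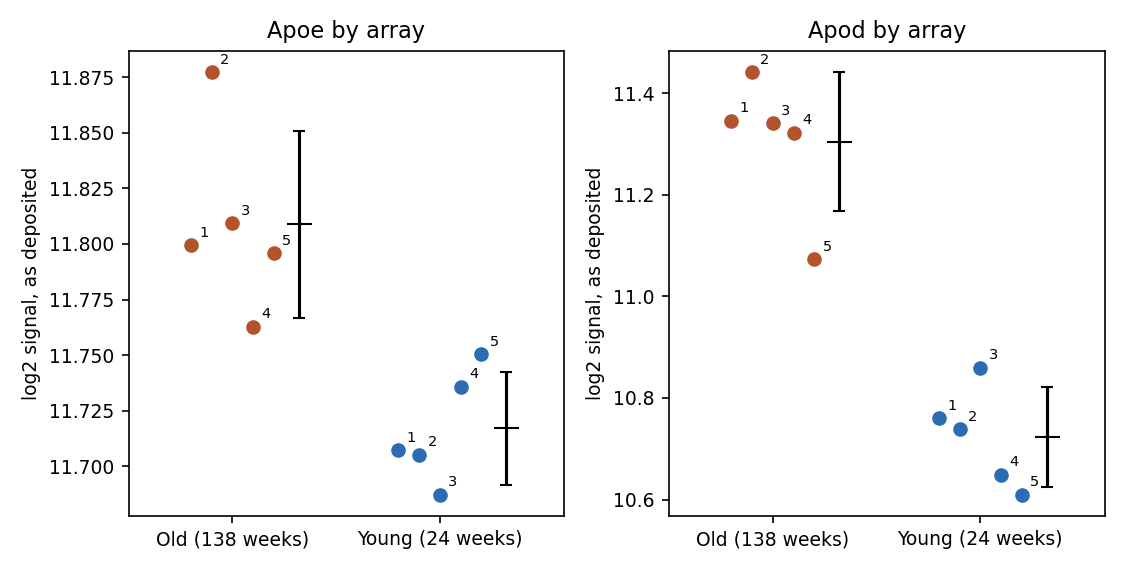
Log2 signal of Apoe (left panel) and Apod (right panel) in each array, with Old left of Young; numbers are sample numbers and black bars are the mean ± SD of 5 arrays. In both genes every Old array lies above every Young array, by a gap of 0.012 log2 for Apoe and 0.21 log2 for Apod; the 2 vertical axes differ in scale and neither starts at 0.

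The difference between Old and Young was fitted for every gene with limma, a linear model that borrows its estimate of spread from all genes, with p-values adjusted over the whole table by the Benjamini-Hochberg method and a threshold of 0.05. In that fit 0.190% of genes were called higher and 0.0308% lower in Old, 0.220% in all. Apod rose (adjusted p = 0.0125), with a 95% interval of the difference from 0.42 to 0.74 log2. Apoe did not pass (adjusted p = 0.242), and its interval, which is not adjusted for the number of genes, ran from 0.045 to 0.14 log2. The 276 varying genes were also fitted alone. The p-values were then adjusted over fewer genes, and the spread was borrowed from these 276 alone. The SD so borrowed was 7.0e-06 log2 over all genes, most of them collapsed, and 0.069 log2 over the varying genes. The SE of Apod was 0.071 in both fits and that of Apoe was 0.027 in place of 0.021. The interval of Apoe above rests on the smaller SE. In the varying genes alone 24.6% of genes were called higher and 11.2% lower, 35.9% in all. Both Apod (adjusted p = 0.000148) and Apoe (adjusted p = 0.0245) rose in that fit. Groups that do not overlap, with Old higher, occurred in 0.836% of all genes and in 20.7% of the varying genes; with Old lower, the shares were 0.538% and 7.25%. The 2 genes were picked with these results known, so their calls are a description and not independent evidence.

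By size, the difference of Apod was number 15 and that of Apoe number 94 when the genes are ranked from the largest rise down, and the rank is the same whether the 19505 or the 276 genes are ranked. In units of the spread between arrays of one age, the difference was 4.87 pooled SD for Apod and 2.64 pooled SD for Apoe. On a scale on which the Young mean is 0 and the Old mean is 1, the Old arrays lay between 0.60 (Old 5) and 1.23 (Old 2) for Apod and between 0.50 (Old 4) and 1.75 (Old 2) for Apoe. The Young arrays lay between -0.20 (Young 5) and 0.23 (Young 3) for Apod and between -0.33 (Young 3) and 0.36 (Young 5) for Apoe.

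Leaving out 1 array at a time moved the size of both differences little. For Apod the difference stayed between 0.55 (without Old 2) and 0.64 log2 (without Old 5); in the fit to all genes its call was lost without Old 4 (adjusted p = 0.0537) or Young 4 (0.055), and the other 8 fits gave 0.0038 to 0.0484. In the varying genes alone the call of Apod was kept in all 10 fits, with adjusted p from 4.09e-05 to 0.000726. For Apoe the difference stayed between 0.075 (without Old 2) and 0.10 log2 (without Old 4). In the varying genes alone the call of Apoe depended on Young 1, Young 2 and Young 3, each of which left it short of the threshold when removed (adjusted p = 0.0553, 0.0532 and 0.0607). Without Young 3 and Young 5 together the differences were 0.59 log2 for Apod (adjusted p = 0.0855 over all genes, 0.000925 in the varying genes) and 0.093 log2 for Apoe (0.59 and 0.0733).

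**Figure D2:**
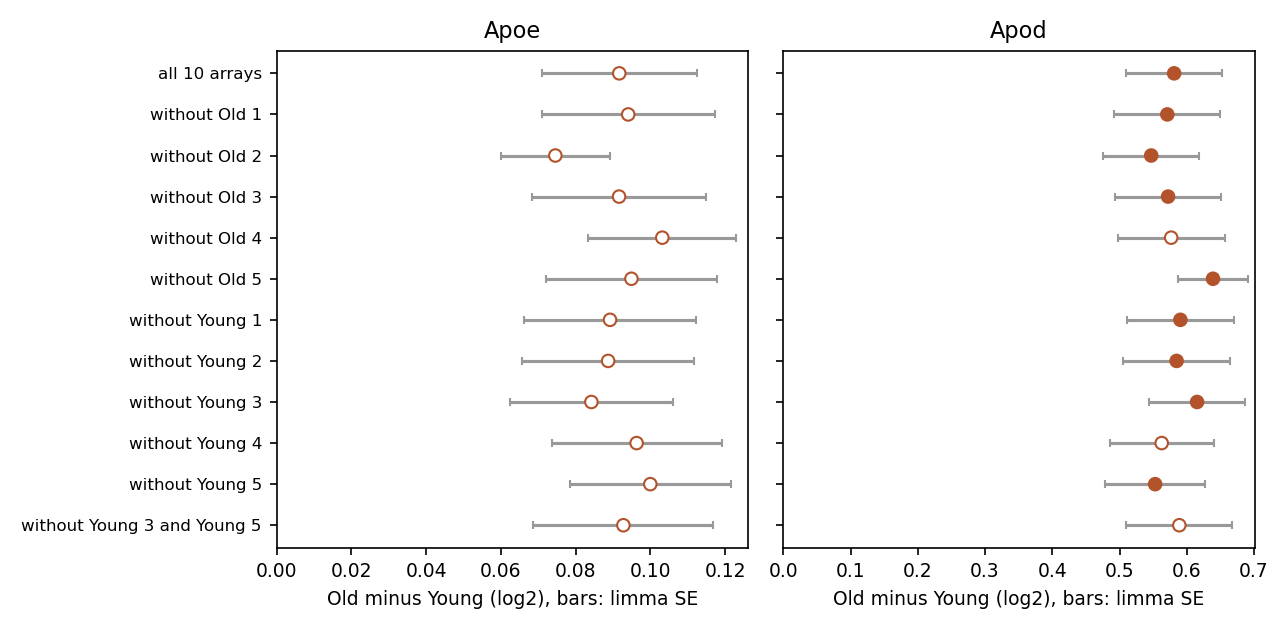
Old minus Young difference (log2) of Apoe (left) and Apod (right) with all 10 arrays and with arrays left out, in the limma fit to all genes; bars are the standard error, and filled points have an adjusted p under 0.05. The difference of Apod stays between 0.55 and 0.64 log2 and that of Apoe between 0.075 and 0.10 log2; no point of Apoe is filled.

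Although both genes were higher in Old, their order from array to array within an age differed, and differently in the 2 ages. Among the Young arrays, Young 3 was the highest for Apod and the lowest for Apoe, and Young 5 was the lowest for Apod and the highest for Apoe. Young 4 took the second place from the same ends. These are the arrays with the liver and choroid plexus transcripts (Young 3 and Young 5) and 1 without them (Young 4). Among the Old arrays no such opposition was seen: Old 2 was the highest for both, Old 5 was by far the lowest for Apod, and Old 4 was the lowest for Apoe. Over all 10 arrays, after the mean of each age was taken off, Pearson's r between the 2 genes was 0.042 and Spearman's rho 0.079, given as a description that joins these 2 unlike orders. Without Old 2 and Old 4, the arrays farthest from their age mean for Apoe, r was -0.47, and without Old 5 and Old 2, the farthest for Apod, it was -0.77. With 5 arrays an age, the relation within an age was not tested.

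**Figure D3:**
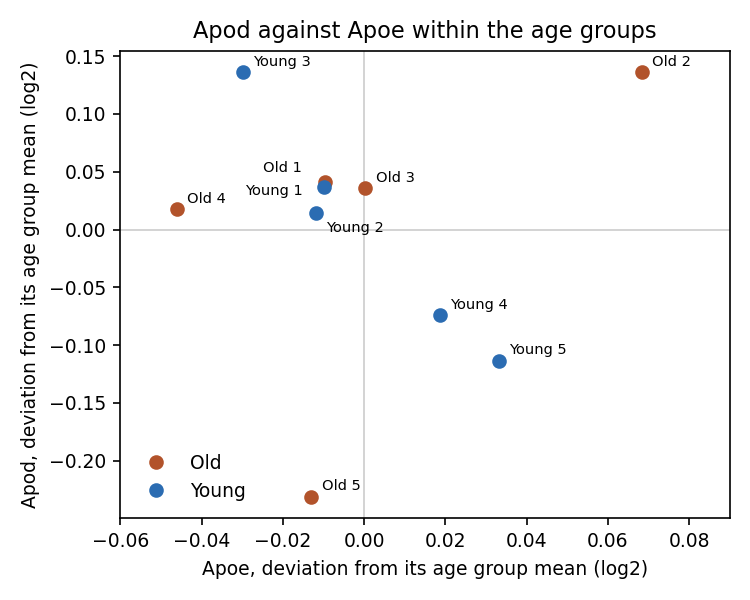
Deviation of Apod (vertical axis) against deviation of Apoe (horizontal axis), each from the mean of its own age group in log2 units, for 5 Old and 5 Young arrays. The Young arrays run from high Apod and low Apoe (Young 3) to low Apod and high Apoe (Young 5), while Old 2 is high in both and Old 5 is low in Apod.

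The genes whose array pattern was most like that of Apod were sought among the other 275 varying genes, with the age means taken off, so that age itself did not set the likeness. The 5 with the highest r over the 10 arrays were Aldh1a1 (r = 0.91, rho = 0.95), C1qb (r = 0.91, rho = 0.83), Slc6a3 (r = 0.88, rho = 0.92), Ret (r = 0.86, rho = 0.92) and C1qa (r = 0.86, rho = 0.87). Slc6a3 encodes the dopamine transporter, Aldh1a1 a retinaldehyde dehydrogenase found in a subset of dopamine neurons, and Ret the receptor tyrosine kinase for GDNF; C1qa and C1qb encode chains of the complement protein C1q, made in the brain mainly by microglia. Without Old 5 and Old 2, the arrays farthest from their age mean for Apod, r was between 0.66 (C1qa) and 0.84 (Ret). The arrays share their RNA, hybridisation and normalization, and these genes are the top of 275, so r is a measure of likeness only.

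Slc6a3 was spread far more widely than Apod. Its log2 signal was 8.68, 8.90, 8.26, 7.22 and 6.65 in Old 1 to Old 5, and 8.30, 8.42, 8.51, 7.04 and 6.91 in Young 1 to Young 5. The arrays numbered 4 and 5 of both ages were low, and the ages overlapped throughout (7.94 ± 0.97 in Old and 7.84 ± 0.79 log2 in Young, SD, n = 5 each; difference 0.11, SE 0.53, adjusted p = 0.988 in the limma fit to all genes). With Slc6a3 as a covariate in the limma fit the difference of Apod was 0.57 log2 and that of Apoe 0.091 log2. The age difference of Slc6a3 itself was small beside its spread, so that fit could move either difference only a little. Slc6a3 was picked for its likeness to Apod in these arrays, which by itself narrows the error of Apod in that fit, so no error or p is given for it.

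C1qa and C1qb, unlike the 3 genes above, also differed between the ages. C1qb had 8.25, 8.38, 8.24, 8.26 and 8.11 log2 in Old 1 to Old 5, and 8.03, 7.97, 7.99, 7.90 and 7.90 log2 in Young 1 to Young 5. Its groups did not overlap, and Old 2 was the highest and Old 5 the lowest of the Old arrays, as for Apod. C1qb was higher by 0.29 (SE 0.048) and C1qa by 0.34 log2 (SE 0.056); with limma both missed the threshold in the full table (adjusted p = 0.0719 for each; 0.018 for C1qb and 0.0137 for C1qa without Old 5) and passed among the varying genes (0.00148 and 0.00147).

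For Apoe the 5 most similar genes were Nnat (r = 0.88, rho = 0.84), Npy (r = 0.76, rho = 0.72), Cirbp (r = 0.73, rho = 0.79), Pcdhb9 (r = 0.71, rho = 0.60) and Vwf (r = 0.70, rho = 0.28). Nnat encodes neuronatin, a small membrane protein abundant in the hypothalamus, Npy the feeding peptide neuropeptide Y, Cirbp a cold-induced RNA-binding protein, Pcdhb9 a beta protocadherin and Vwf the von Willebrand factor of endothelium. Without Old 2 and Old 4, the arrays farthest from their age mean for Apoe, r was 0.63 for Nnat, 0.48 for Npy, 0.71 for Cirbp, 0.75 for Pcdhb9 and -0.041 for Vwf. The likeness to Vwf therefore rested on Old 2, where Vwf stood at 7.04 log2 against at most 6.48 in the other Old arrays. Nnat did not differ between the ages beyond its spread (10.57 ± 0.13 in Old and 10.63 ± 0.065 log2 in Young, SD, n = 5 each), while Pcdhb9 rose by 0.35 log2 (SE 0.045, limma adjusted p = 0.0155 in the full table; the call was lost without Old 3, Old 4, Old 5, Young 1, Young 2 or Young 4, with adjusted p from 0.0537 to 0.0639).

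**Figure D4:**
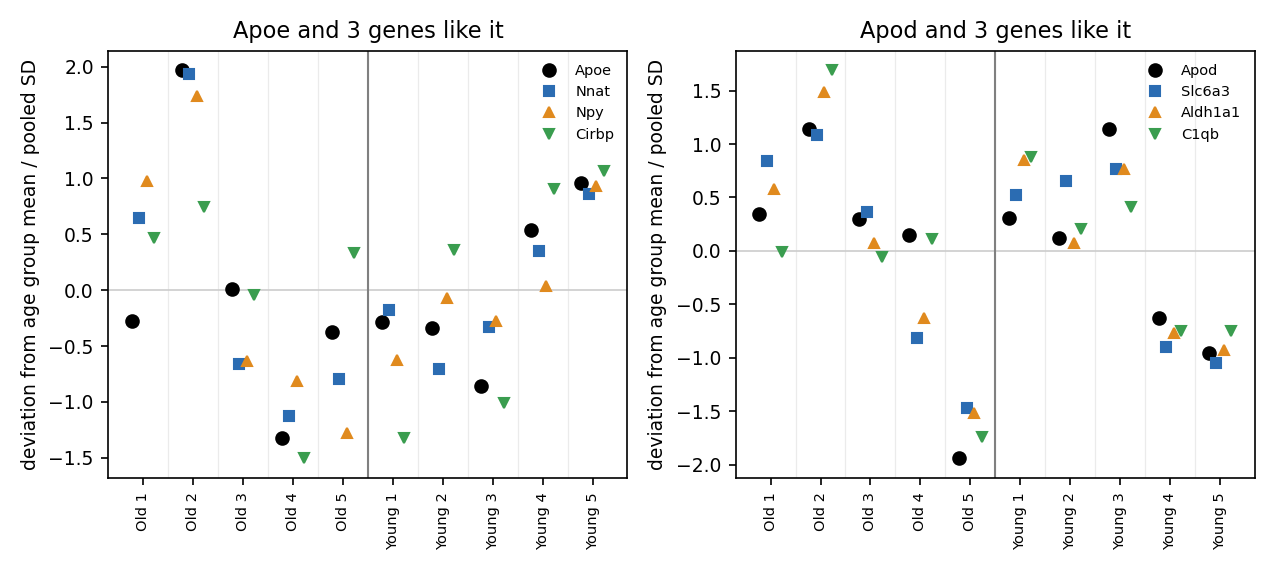
Deviation of each array from the mean of its age, in pooled SD of the gene (vertical axis), for Apoe with Nnat, Npy and Cirbp (left) and for Apod with Slc6a3, Aldh1a1 and C1qb (right); arrays are on the horizontal axis, Old left of Young. For Apod and the genes like it, Old 2 is high and Old 5, Young 4 and Young 5 are low; for Apoe and the genes like it, Old 2 and Young 5 are high and Old 4 is low.

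Other genes of lipid transport and handling were taken from 8 lists with 145 genes. Apart from Apoe and Apod, 127 of their members were measured, of which 9 varied, 112 were collapsed and 6 lay between. In the fit to all genes 1 of the 127 was called higher and 0 lower, where 0.190% and 0.0308% of all genes were. In the varying genes alone 2 of the 9 were called higher and 3 lower, a balance that the background of 24.6% and 11.2% in that fit can be set beside. Their median difference was -0.086 log2, against -0.019 log2 over all varying genes; over all 127 measured members it was 1.02e-06 log2 and over all genes -8.74e-08 log2, values that the collapse fixes near 0.

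Among the partners of apolipoprotein E, Abca1 was the 1 varying gene that was higher. It encodes the membrane pump that loads cholesterol and phospholipid onto apolipoprotein E. Its log2 signal was 8.18, 8.17, 8.18, 8.24 and 8.09 in Old 1 to Old 5, and 8.081, 8.004, 7.950, 8.03 and 8.07 in Young 1 to Young 5. The groups did not overlap, although Old 5 and Young 1 nearly met. Abca1 was higher in Old by 0.14 log2 (SE 0.032, 1.10-fold), with limma adjusted p of 0.225 in the full table and 0.011 among the varying genes. The sterol exporter gene Abcg4 was at -0.086 log2 (SE 0.043) and passed in neither limma fit (adjusted p = 0.783 and 0.165).

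Other apolipoproteins and receptors gave no usable difference. Of 17 measured apolipoprotein genes, Apoe and Apod alone varied; Clu, which encodes the glial apolipoprotein J, was collapsed at 11.81 log2 and Apoc1 at 6.10 log2. Of 18 measured genes for lipoprotein receptors and their partners 0 varied. Lrp1 (9.50 log2), Lrp8 (7.69) and Vldlr (8.38), which encode receptors for apolipoprotein E, were collapsed. Bsg, which encodes the apolipoprotein D receptor basigin, lay between, at 11.56 log2, with a difference of -0.003 log2. Trem2, a microglial receptor that binds lipid and apolipoproteins, was the member called higher over all genes (limma adjusted p = 0.0101), by 0.0017 log2; with median centring this was 0.00027 log2 (0.683), and without Young 3 and Young 5 it was 0.0016 log2 (0.141). The 11 measured sterol-sensing regulators, Nr1h3 among them, and the 19 measured genes of sterol synthesis and clearance held 0 varying genes. Their values, like those of Abcg1, Lcat, Lpl, Plin2 and Sqle, cannot show whether age changed them; Nr1h2 and Srebf1 were not analysed here.

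Of the 23 measured genes of lipid droplets and fatty acid handling, 19 were collapsed. The 4 varying ones had a difference below 0, as did 145 of the 276 varying genes, and 3 of the 4 fell in the varying genes alone, where 11.2% of genes did. Fads1, a desaturase that makes long polyunsaturated fatty acids including arachidonic acid, had 9.17, 9.35, 9.37, 9.31 and 9.32 log2 in Old 1 to Old 5, and 9.57, 9.52, 9.56, 9.46 and 9.50 log2 in Young 1 to Young 5. Its groups did not overlap, and its difference was -0.22 log2 (SE 0.038; limma adjusted p = 0.0982 in the full table, 0.029 there without Old 1, and 0.00266 among the varying genes). Fads2, the desaturase before it in the pathway, was at -0.11 log2 and Fabp7, a fatty acid binding protein of immature and radial glia, at -0.41 log2; both fell in the varying genes alone (adjusted p = 0.0218 and 0.0208) and not over all genes (0.319 and 0.471). Without Young 3 and Young 5 the difference of Fabp7 was -0.32 log2. Scd1, a desaturase of saturated fatty acids, was at -0.093 log2 and passed in neither fit (0.896 and 0.396).

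Among lipocalins, the relatives of apolipoprotein D, and the genes that defend against peroxidation, few could show a difference. Of 12 measured lipocalins 10 were collapsed, which left Lcn2 alone beside Apod, and of 14 measured defence genes 12 were collapsed. Lcn2, a lipocalin of reactive astrocytes, was higher by 0.60 log2, with an SE of 0.43. Single arrays set that value: it was 0.30 log2 without Old 2, 0.91 without Young 3 and 0.93 without Young 3 and Young 5. Its Old values ran from 6.14 to 7.95 log2 and its Young values from 5.76 to 7.34, so that the groups overlapped; Young 3 held the highest Young value, as it did for Apod. Lcn2 passed in neither limma fit (adjusted p = 0.87 and 0.272). Ptgds, the brain lipocalin that makes prostaglandin D2, was collapsed at 9.998 log2. Gstm1, a glutathione transferase that removes products of lipid peroxidation, was higher by 0.22 log2 (SE 0.061) with no overlap, and rose in the varying genes alone (adjusted p = 0.0203; 0.434 over all genes).

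**Figure D5:**
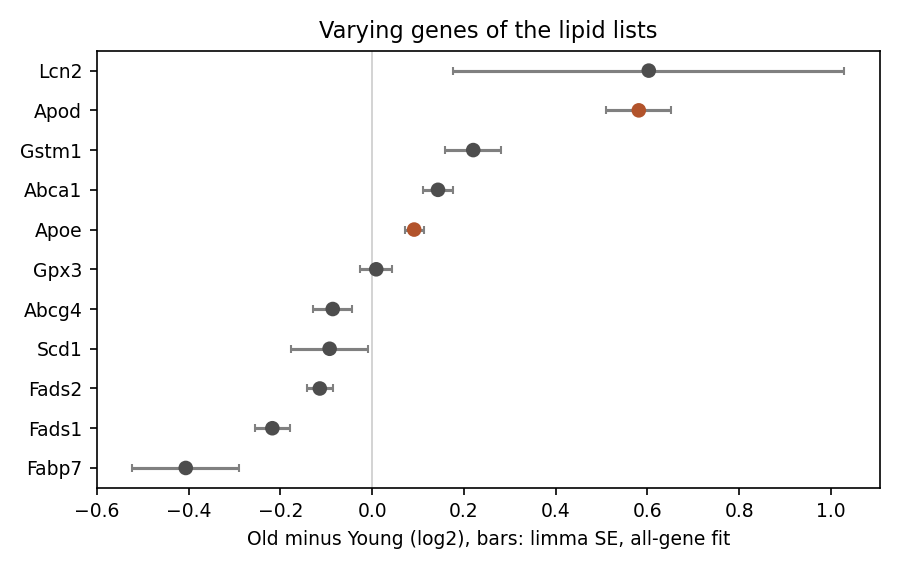
Old minus Young difference (log2, horizontal axis) of the 11 varying genes of the lipid lists, with limma's standard error from the fit to all genes as bars; Apoe and Apod are in orange. Apod is at 0.58 log2 with a standard error of 0.071; Lcn2 is at 0.60 log2 with one of 0.43 and moves to 0.30 without Old 2 and 0.91 without Young 3. Fabp7 is the lowest at -0.41 log2.

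The chromosomal neighbours of both genes gave no difference that could be read. Of the 16 protein-coding genes nearest to them in RefSeq, 4 on each side, 12 were measured and all 12 were collapsed, among them Apoc1 and Tomm40 beside Apoe, and Ppp1r2 and Bdh1 beside Apod. The level of a neighbour thus says nothing here about a shared change of the region.

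Markers of the cells that make these proteins moved unevenly with age, and their part in the differences of Apoe and Apod was not tested. For each list the linear signals of its measured members were summed in each array. Collapsed members cannot move a sum, so it is not a level of the cell type. They were 8 of the 13 astrocyte, 7 of the 10 reactive astrocyte and 6 of the 13 microglial markers. The 13 measured astrocyte markers summed to 12011.1 to 12323.0 in Old and 12195.6 to 12481.3 in Young. In the fit to all genes 2 were called lower, where 0.0308% of all genes were. They were Ntsr2 at -0.30 log2 and Slc7a10 at -0.00045 log2. Of the 4 varying markers 2 lay above 0, Aldoc at 0.061 and Slc1a2 at 0.004 log2. The other 2 lay below it, Ntsr2 and Gja1, the latter at -0.14 log2. The 10 reactive astrocyte markers summed to 1870.5 to 2159.2 in Old and 1502.9 to 1681.4 in Young, with no overlap; Gfap rose by 0.44 log2 (adjusted p = 0.0396) and Serpina3n by 0.81 log2. The call of Gfap held without Old 5 or Young 5 but was lost without any other single array (adjusted p from 0.094 to 0.142). With both Young 3 and Young 5 removed, Gfap was higher by 0.50 log2 (adjusted p = 0.0432), and Serpina3n no longer passed (0.0747). With the replicate block neither passed (0.467 and 0.17), and Gfap did not pass in the unmoderated and trended robust fits (0.107 and 0.0946). The 13 microglial markers summed to 2767.8 to 2949.6 in Old and 2424.7 to 2473.0 in Young, also with no overlap. In the fit to all genes 4 of them rose, where 0.190% of all genes did, a share that the collapsed genes hold down. Ctss rose by 0.91 and Ly86 by 0.33 log2 (limma adjusted p = 0.000172 and 0.00395), while the other 2, C1qc and Trem2, differed by only 0.0059 and 0.0017 log2. Without Young 3 and Young 5 the count was 1, with Ly86 at an adjusted p of 0.0532, and with the replicate block it was 2.

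The summed markers of mature oligodendrocytes overlapped between the ages. The 11 measured ones, of which 6 varied, summed to 9246.6 to 9782.5 in Old and 9040.7 to 10005.1 in Young, and 0 were called in the fit to all genes. Within an age the sum was ordered only in part like Apod: it was highest in Young 3 and lowest in Young 5 among the Young arrays, and lowest in Old 5 among the Old arrays. The highest Old sum was that of Old 4 (9782.5). Old 2, the highest array for Apod, had a sum of 9552.4, below Old 1, Old 3 and Old 4. Since 5 of the 11 members were collapsed, the sum is not a level of the cell type. Its relation to Apod was not tested. Mbp and Mobp, which encode myelin proteins, were at 0.085 and 0.098 log2, and their groups overlapped. Neither passed in either limma fit (adjusted p = 0.650 for each in the full table, 0.0793 and 0.0674 among the varying genes). Cldn11, a tight-junction gene of myelin, was at -0.24 log2 with no overlap (limma adjusted p = 0.264 in the full table, 0.00828 among the varying genes). The 7 measured markers of oligodendrocyte precursors, of which 2 varied, summed to 2594.4 to 2708.5 in Old and 2339.8 to 2451.1 in Young, with no overlap. Bcas1, a gene of newly myelinating oligodendrocytes that was listed with their precursors, rose by 0.47 log2 (limma adjusted p = 0.00481). The other varying gene of that list, Gpr17, which encodes a receptor of precursors about to differentiate, went the opposite way, at -0.20 log2 with no overlap (adjusted p = 0.126 in the full table, 0.00353 among the varying genes). The 12 markers of fibroblasts and meninges, a further source of Apod, summed to 1470.8 to 1555.0 in Old and 1516.5 to 1910.8 in Young. The upper Young value is that of Young 5, and 9 of the 12 markers were collapsed. Their part in the difference of Apod was not tested. The 9 neuronal markers summed to 12886.1 to 12968.4 in Old and 13027.1 to 13102.8 in Young, with no overlap. Their 1 varying member, Syn1, which encodes the synaptic vesicle protein synapsin I, was at -0.15 log2 (adjusted p = 0.0719 in the full table, 0.00339 among the varying genes). The 10 endothelial markers summed to 3378.7 to 3866.2 in Old and 3351.4 to 3617.0 in Young. The 10 choroid plexus markers summed to 992.4 to 1098.8 in Old and 994.4 to 7439.1 in Young, and the 10 liver markers to 647.5 to 668.2 in Old and 646.9 to 804.5 in Young; the upper Young values are those of Young 5 and Young 3. The sums for mural cells, tanycytes and erythrocytes could not vary, because all their measured members were collapsed.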

How the data were processed

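Values of 5 Old and 5 Young hypothalamus samples were used, grouped by sample title. The deposited log2 values hold 22206 probe sets and 10 arrays; the authors had already reduced them to 1 number per probe set and array, and how background was corrected and arrays were normalized and summarised is not recorded in the labels or the file headers. The scale was read from the range (5.00 to 12.97) and the near-identical array medians (6.778 to 6.783); the base is not named in the file. No detection call was used; 5 arrays an age set the precision.

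The platform annotation names 1 gene for 19572 probe sets, several genes for 0 and no gene for 2634; every one of the 19572 gene IDs was found in RefSeq (GRCm38.p6). The brightest probe set of a gene was kept. Fits used limma 3.58.1 in R 4.3.3 (lmFit, eBayes, 2-sided); the prior SD was 7.0e-06 log2 over all genes and 0.069 log2 over the varying genes. The procedure was checked on simulated data.

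The members, gene lists and tests were chosen with earlier results of these data known. Named genes are Apoe and Apod, 22 fixed genes in which they are included, the 5 genes most like each, up to 4 called members of each lipid list and up to 4 varying markers of each cell type list, the most variable first; C1qc, Ly86, Mbp, Mobp, Cldn11, Pmch, Pomc, Gnrh1 and Slc7a10, the neighbours, and other members of the lipid lists were named after their values were seen. Alternatives covered normalization, filters, the variance model, the genes tested, the probe sets and the arrays left out.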

Additional observations from a re-analysis of the deposited data

Results flagged for a closer look

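For 35 named genes the lowest or highest array of each age was compared with its nearest neighbour. In 9 of 70 groups an array stood apart by over 0.71 of the range. Chance gives about 1 in 20 groups for genes picked without regard to their values. These genes were named with their values known, and many markers by their spread, so the 2 shares cannot be compared. Neither Apoe nor Apod had such an array. Young 3 was highest for Lcn2 (7.34 against a nearest value of 5.88 log2), Fabp7 (10.39 against 10.10) and Alb (6.87 against 6.17) and lowest for the astrocyte gap junction gene Gja1 (10.10 against 10.17). Young 5 was highest for Ttr (12.44 against 7.97) and Gfap (9.13 against 8.90). Among the Old arrays, Old 1 was lowest for Fads1 (9.17 against 9.31), Old 2 highest for Vwf (7.04 against 6.48) and Old 3 lowest for the fibroblast gene Dcn (7.58 against 7.85).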

How the results depend on the processing

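Apoe and Apod were higher in Old under every alternative run. Over all genes the difference of Apod was 0.58 log2 and passed, except with the replicate block (0.58, adjusted p = 0.0508), without Young 3 and Young 5 (0.59) and without Old 4 or Young 4; single arrays left out gave 0.547 to 0.639. Apoe (0.092) did not pass over all genes, but did among the varying genes (0.092), and with median centring its adjusted p was 0.0521. After quantile normalization it was at 0.084 with an adjusted p of 0.00701. That normalization also called many collapsed genes lower, as the counts below show, so no call of Apoe is read from it. Single arrays left out gave 0.0746 to 0.103 for Apoe. In the varying genes alone, alternatives added after seeing the data, Apoe lost its call with the replicate block (0.092, adjusted p = 0.0853), without Young 3 and Young 5 (0.093, 0.0733) and without Young 1, Young 2 or Young 3, with differences of 0.0746 to 0.103 over all arrays left out. Apod passed in each of those fits (0.547 to 0.639 with single arrays left out).

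The counts of 37 higher and 6 lower genes became 154 and 6464 after quantile normalization, 68 and 31 among the varying genes, 10 and 1 with the replicate block and 22 and 2 without Young 3 and Young 5; a trended robust prior gave 10 lower. The 6464 lower genes far outnumber the varying genes, so quantile normalization shifted collapsed genes, and its calls cannot be read as changes with age. Single arrays left out gave 25 to 37 higher and 4 to 9 lower. Gpx3, which encodes a secreted glutathione peroxidase (0.009 log2), turned to -0.0096 without Old 2, -0.0021 without Young 1 and -0.0095 without Young 2, and was at most 0.0283 (without Young 4). Over the varying genes, deviations of same-numbered arrays correlated at -0.219 to 0.281, and 0 of 5 Old arrays correlated best with the Young array of its own number. That comparison showed no pairing of single arrays, but it does not address groups of numbers. Slc6a3, Aldh1a1 and Ret, picked for their likeness to Apod, lay below their age mean in arrays 4 and 5 of both ages. In arrays 1 to 3 of both ages they lay above it. Apod, C1qa and C1qb split in the same way among the Young arrays. Among the Old arrays Apod missed the split only in Old 4, at 0.018 log2 from its age mean. C1qa missed it only in Old 3, at -0.0041 log2, and C1qb did not split in this way. Whether arrays 1 to 3 and arrays 4 and 5 were handled apart was not tested. Without background values, what signal limits was not assessed.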
